A study of Mus musculus with 5 samples.

Results

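Long-chain fatty acids are burned in the mitochondria of hepatocytes, the main epithelial cells of the liver. Cpt1a, on the outer membrane, links the activated fatty acid to carnitine, and Cpt2, on the inner membrane, returns it to coenzyme A inside. The acyl-CoA dehydrogenases Acadvl, Acadl and Acadm, named for very long, long and medium chains, start each turn of the beta-oxidation spiral. The trifunctional protein, built from Hadha (alpha subunit) and Hadhb (beta subunit), completes a turn on long chains, and the thiolase Acaa2 cuts off acetyl-CoA from shorter ones. In the fasted or suckling animal the liver turns much of this acetyl-CoA into ketone bodies, and Bdh1, a mitochondrial dehydrogenase, interconverts acetoacetate and 3-hydroxybutyrate in the last step. Transcription of these genes is known to respond to PPAR-alpha, a nuclear receptor for fatty acids that binds DNA together with RXR.

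The transcripts of these 9 genes were followed, among 31053 in the annotation, in hepatocytes of 5 liver libraries made with the 10x v3 droplet kit from C57BL/6J mice. The genes were taken by name. There was 1 library for each of 5 groups: untreated adults, adults operated at 8 weeks of age and taken 24 h, 48 h or 96 h after partial hepatectomy (PHx, surgical removal of most of the liver), and postnatal day 14 (P14) mice. Cells were released by perfusion and passed over a dead-cell removal kit. Sex and the number of mice per library are not given, and no genetic modification is named for any group. The labels disagree on the adult control: its title and source call it a control, whereas a protocol counts it among the operated animals. It was taken as the control. A code in the descriptions, whose meaning the labels do not give, is 2 for this library and 1 for the other 4, so whatever it stands for cannot be told apart from being the control.

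Hepatocytes were barcodes with at least 5000 unique molecular identifiers (UMIs, each standing for 1 captured RNA molecule), 10% to 30% of them mitochondrial, and at least 1% from Alb, Apoa1 and Ttr, which encode secreted plasma proteins. The adult control gave 925 such cells, the libraries of 24, 48 and 96 h gave 1170, 719 and 771, and P14 gave 2106, in all 5691. Barcodes that met the other limits but had over 30% mitochondrial UMIs numbered 501, 462, 363, 1701 and 446 in the same order. At 96 h these outnumbered the hepatocytes of the rule. Median depth ran from 18527 to 38923 UMIs per cell. All 5 hepatocyte markers that were not part of this rule were present in every library, with a summed level between 19557 and 31321 CPM, the scaled count defined below. No more than 2 libraries shared a barcode, and 3 barcodes were shared. The UMIs of each gene were summed over the hepatocytes of a library and divided by all UMIs outside the 13 mitochondrially encoded genes, and the share was scaled to counts per 1e6 (CPM). With 1 library per group there is no replicate check and no test: intervals are exact 95% Poisson intervals of the counts, and they cover counting error only. A ratio is log2 of (CPM + 1) over (CPM + 1), and a difference of at least 1.5-fold is counted as past the threshold. The background is the share of 8674 genes, those averaging at least 5 CPM, that passed it in the same comparison. All 9 genes met this minimum.

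The upstream sequence of the acyl-CoA dehydrogenase genes is shown because these 3 genes catalyse the same step yet differed most in P14. Each line holds the 250 bases before the RefSeq start in build GRCm38.p6, read 5′ to 3′ along the gene's own strand, at chr11:70015429-70015678 (minus strand) for Acadvl, chr1:66863310-66863559 (minus strand) for Acadl and chr3:153944644-153944893 (minus strand) for Acadm. No GENCODE exon lies in these windows. Capitals mark the half-site AGGTCA, or TGACCT on the other strand, the element that nuclear receptors such as PPAR-alpha recognise in pairs.
Acadvl: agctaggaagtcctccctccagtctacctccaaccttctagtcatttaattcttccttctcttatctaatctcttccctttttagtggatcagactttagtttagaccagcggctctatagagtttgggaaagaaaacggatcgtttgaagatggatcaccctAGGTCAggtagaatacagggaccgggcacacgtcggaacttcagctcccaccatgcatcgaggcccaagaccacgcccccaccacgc
Acadl: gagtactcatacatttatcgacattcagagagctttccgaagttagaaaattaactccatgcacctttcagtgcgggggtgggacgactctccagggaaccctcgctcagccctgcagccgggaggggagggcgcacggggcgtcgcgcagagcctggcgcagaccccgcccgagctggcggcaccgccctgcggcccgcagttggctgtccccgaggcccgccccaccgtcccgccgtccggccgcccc
Acadm: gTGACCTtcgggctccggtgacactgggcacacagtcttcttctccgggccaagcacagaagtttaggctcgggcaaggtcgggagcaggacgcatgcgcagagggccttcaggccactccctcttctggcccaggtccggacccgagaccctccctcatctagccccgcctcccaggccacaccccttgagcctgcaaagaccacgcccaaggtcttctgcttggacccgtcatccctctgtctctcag

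The half-site stands at position -87 of Acadvl and -249 of Acadm, counted from the start, and is not in the window of Acadl. RefSeq windows were matched for 8 of the 9 genes, and an exact half-site was also found for Cpt1a. Of 32851 windows of this length over the genome, 14.0% hold 1. The paired element of PPAR-alpha and RXR is 2 half-sites 1 base apart, spelled AGGTCANAGGTCA. It was not found with up to 2 mismatches in any of their 9 windows (Bdh1 has 2), against 3.24% of all windows, searched on both strands. The element TCAAGGTCA of the estrogen-related receptors, which contains the half-site, was found with 1 mismatch at position -93 of Bdh1 and in 6.35% of windows. The Acadl window had 25 CpG dinucleotides and 68.0% G and C, against a median of 6 and 52.4% over all windows. Such matches describe letters and say nothing of binding.

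Hadha and Hadhb lie head to head, and the 85 bases between their GENCODE bounds, at chr5:30155163-30155247, serve as upstream sequence for both. The sequence is given on the plus strand, with Hadhb to its right and Hadha, on the minus strand, to its left, because the relative counts of the 2 subunits differed between libraries. It holds no half-site.
Hadha-Hadhb: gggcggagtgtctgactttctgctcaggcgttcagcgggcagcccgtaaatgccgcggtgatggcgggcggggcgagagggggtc

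Summed over the 9 genes, hepatocytes held 1956 CPM in the adult control (1932 to 1980), 1347 CPM at 24 h (1330.4 to 1363), 1662 CPM at 48 h (1644 to 1679), 2391 CPM at 96 h (2365 to 2417) and 3698 CPM in P14 (3683 to 3713). The sum was thus lowest at 24 h, between 24 h and control at 48 h, above control at 96 h and highest in P14, and none of the intervals overlapped. At 24 h, 0 of the 9 genes were at least 1.5-fold above the control and 4 at least 1.5-fold below it, against 18.3% and 16.4% of all genes. At 48 h the counts were 0 above and 1 below (background 16.6% and 18.7%), and at 96 h 3 above and 0 below (12.8% and 6.13%). In P14 there were 5 above and 0 below (13.3% and 30.8%). The 9 genes had median log2 ratios of -0.58 (24 h), -0.35 (48 h), 0.21 (96 h) and 0.80 (P14). All tested genes had medians of 0.00, -0.07, 0.05 and -0.26. These 4 comparisons share the control library, so its own error enters each of them.

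**Figure D1:**
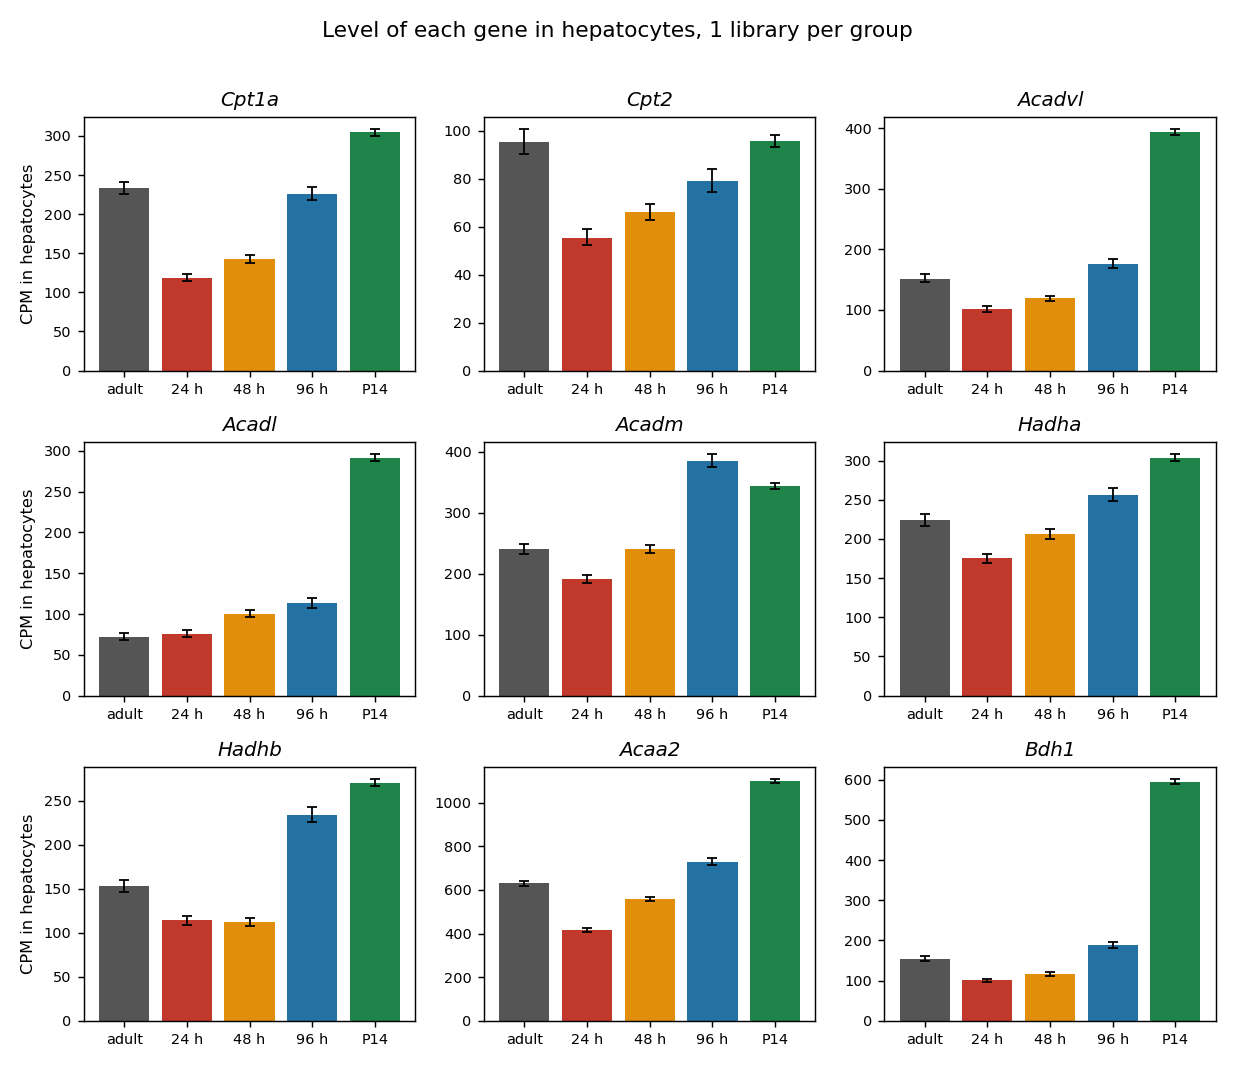
Level of each gene in hepatocytes (CPM, axis from 0) in the adult control, 24 h, 48 h and 96 h after PHx, and P14. Bars are 1 library each and error bars are exact 95% Poisson intervals. The lowest bar is 24 h or 48 h for every gene except Acadl, and P14 is the highest for every gene except Acadm, with Cpt2 in P14 overlapping the control.

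Cpt1a and Cpt2, the carnitine shuttle, were the most reduced early after surgery. Cpt1a (GRCm38 chr19:3322334-3385733, plus strand) measured 233 CPM (225 to 242) in the adult control, 119 CPM at 24 h, 142 CPM at 48 h, 226 CPM at 96 h and 305 CPM in P14. The 24 h and 48 h libraries were low, and control and 96 h overlapped within counting error. The log2 ratio over control was -0.97 at 24 h (-1.05 to -0.89) and -0.71 at 48 h (-0.79 to -0.64), the lowest of the 9 genes at both times. At 96 h it was -0.04 (-0.12 to 0.03). Cpt2 (chr4:107903981-107923610, minus strand) measured 95.4 CPM in the control, 55.4 CPM at 24 h, 66.0 CPM at 48 h, 79.0 CPM at 96 h and 95.6 CPM in P14. Its 3 libraries after PHx all lay below the control, and P14 overlapped the control. The log2 ratio was -0.77 at 24 h, -0.27 at 96 h (-0.39 to -0.15) and 0.00 in P14 (-0.08 to 0.09), so Cpt2 was the lowest of the 9 in both of the latter comparisons.

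The acyl-CoA dehydrogenases differed from each other. Acadvl (chr11:70010183-70015411, minus strand) measured 152 CPM in the control, 101 CPM at 24 h, 119 CPM at 48 h, 177 CPM at 96 h and 394 CPM in P14. Its log2 ratio was -0.58 (-0.68 to -0.50) at 24 h, just short of the threshold, and 1.37 (1.31 to 1.44) in P14. Dvl2, on the opposite strand, shares 2119 bases with it, and whether the counting used strand is not given in the sources used here. Acadl (chr1:66830839-66863277, minus strand) measured 72.4 CPM in the control, 75.9 CPM at 24 h, 100.03 CPM at 48 h, 113 CPM at 96 h and 292 CPM in P14. It was the only gene of the 9 that was not below the control at 24 h, where the log2 ratio was 0.07 (-0.05 to 0.19), although it was -0.21 among cells with 10% to 20% mitochondrial UMIs. P14 stood at 2.00 (1.92 to 2.10), the highest of the 9. The pseudogene Gm15793 shares 495 bases of the same strand with Acadl and was not analysed apart here. Acadm (chr3:153922357-153944632, minus strand) measured 241 CPM in the control, 191 CPM at 24 h, 241 CPM at 48 h, 386 CPM at 96 h and 344 CPM in P14. Control and 48 h could not be separated, and Acadm alone was higher at 96 h than in P14. Its log2 ratio was 0.68 at 96 h (0.62 to 0.74) and 0.51 in P14 (0.46 to 0.57).

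The subunits of the trifunctional protein also differed. Hadha (chr5:30118304-30155162, minus strand) measured 224 CPM in the control, 175 CPM at 24 h, 206 CPM at 48 h, 256 CPM at 96 h and 304 CPM in P14. Its log2 ratios, from -0.35 at 24 h to 0.44 in P14, did not reach the threshold in any of the 4 comparisons. Hadhb (chr5:30155248-30184593, plus strand) measured 153 CPM in the control, 114 CPM at 24 h, 113 CPM at 48 h, 234 CPM at 96 h and 270 CPM in P14. The 24 h and 48 h libraries overlapped, and 96 h and P14 stood above the control with log2 ratios of 0.61 (0.53 to 0.69) and 0.81 (0.75 to 0.88). Hadhb counts divided by Hadha counts gave 0.685 for the control (0.647 to 0.725), 0.650 for 24 h (0.616 to 0.686), 0.547 for 48 h (0.520 to 0.576), 0.914 for 96 h (0.871 to 0.960) and 0.890 for P14 (0.872 to 0.908). The ratio was lowest at 48 h and highest at 96 h and in P14, whose intervals overlap. It compares libraries with each other and is no measure of the molar ratio of the 2 transcripts, since capture differs between genes.

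Acaa2 and Bdh1 stand at the end of the pathway. Acaa2 (chr18:74779197-74806208, plus strand) measured 629.6 CPM (616 to 643) in the control, 414 CPM at 24 h, 559 CPM at 48 h, 729.7 CPM at 96 h and 1099 CPM in P14. The libraries followed the order of the sum over all 9 genes, with no overlap. The log2 ratio was -0.60 at 24 h (-0.65 to -0.56) and 0.80 in P14 (0.77 to 0.84), with -0.17 and 0.21 for 48 and 96 h. Bdh1 (chr16:31422280-31458901, plus strand) measured 155 CPM in the control, 101 CPM at 24 h, 116 CPM at 48 h, 189 CPM at 96 h and 595 CPM in P14. P14 was far above the other 4 libraries, with a log2 ratio of 1.93 (1.88 to 2.00). At 24 h the ratio was -0.62 (-0.72 to -0.54). The antisense gene Gm15743 shares 1901 bases with Bdh1.

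**Figure D2:**
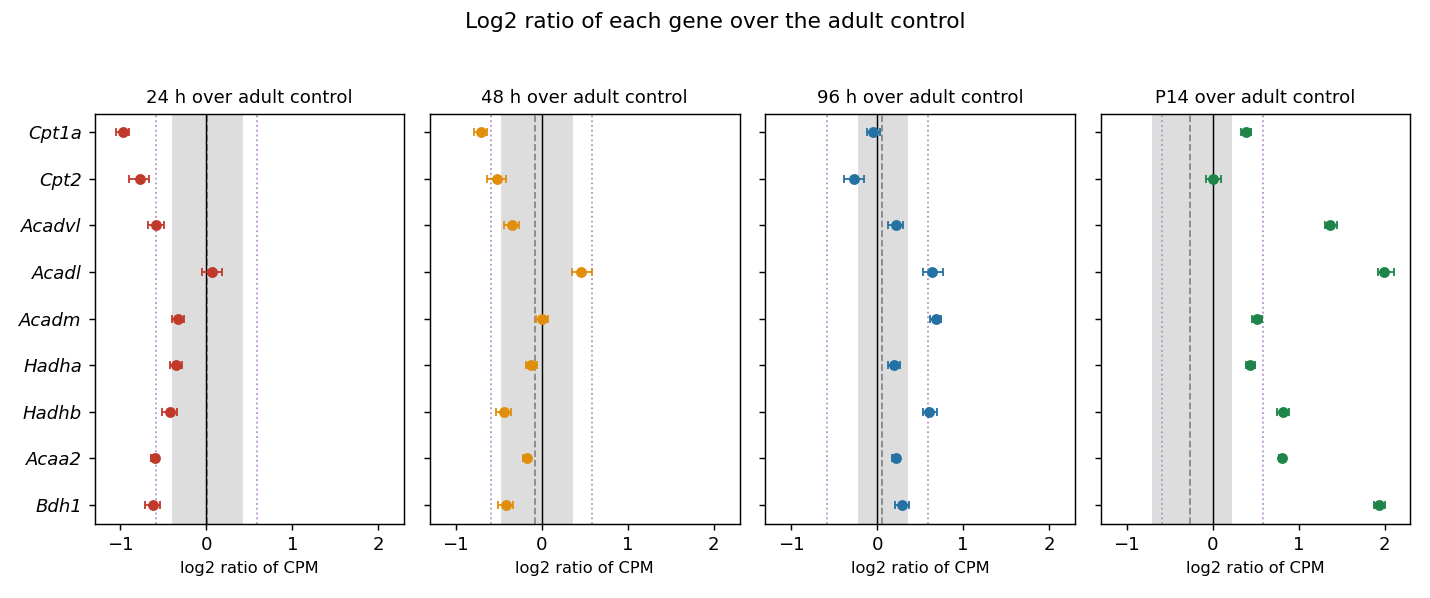
Log2 ratio of CPM over the adult control for each gene, in 4 panels (24 h, 48 h, 96 h, P14). Points are 1 library against 1 library with exact 95% intervals of counting error, dotted lines mark 1.5-fold, the grey band spans the middle quartiles of all tested genes and the dashed line is their median. At 24 h, 8 of 9 points lie left of 0, and in P14 all 9 lie right of the dashed line.

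Some of these results depend on scaling and on the threshold. The P14 ratios shifted with scaling. Hepatocytes of this library gave 146536 CPM to Alb, Apoa1 and Ttr, which the hepatocyte rule uses, against 39543 CPM in the control, and the part of this in the shift was not tested. With trimmed-mean (TMM) factors the median of all genes moved from -0.26 to 0.07 and that of the 9 genes from 0.80 to 1.14. Cpt1a, Acadm and Hadha then also passed 1.5-fold, for 8 above and 0 below, and the background became 23.2% above and 16.1% below. At 24 h, Acaa2 and Bdh1 lay so near the threshold that each lost its call with TMM factors, with mitochondrial UMIs in the denominator, with free RNA subtracted, and with cells of at least 3% of Alb, Apoa1 and Ttr. Cpt1a and Cpt2 kept their calls under these settings. The calls of Acadm, Acadl and Hadhb at 96 h were near the threshold too: Acadm and Hadhb lost theirs with 10% to 20% mitochondrial UMIs, and Acadl in non-cycling cells.

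Between the times after PHx, counted without the control, 0 of 9 genes differed by 1.5-fold between 48 h and 24 h (background 4.57% above and 6.51% below). From 48 h to 96 h, 4 were higher and 0 lower (13.6% and 7.22%). From 24 h to 96 h, 6 were higher and 0 lower (13.4% and 10.2%), with a median log2 ratio of 0.82 and values from 0.50 for Cpt2 to 1.03 for Hadhb. P14 set against 96 h gave 4 higher and 0 lower (6.85% and 28.5%). Bdh1 was the most different of these at 1.65, and Acadm lay at -0.16.

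The levels were spread over the cells of each library and were not carried by a few. With every cell thinned to 5000 UMIs, the 9 genes together gave a median of 8 UMIs per control hepatocyte, against 5, 6 and 9 UMIs for 24, 48 and 96 h and 14 for P14. The 5th and 95th percentiles were 2 and 10 at 24 h and 7 and 22 in P14. The variance was 1.16, 1.23, 1.14, 1.26 and 1.47 times the mean in the same order, where counting alone gives about 1. This measure rises with the mean for the same relative spread, so it gives no order of the libraries. At 24 h, 13 of 1170 cells had 0 UMIs of the 9 genes, at 48 h 6 of 719, and none of the cells of the other 3 libraries. Single genes differed in how well a cell could be read: Cpt2 gave a mean of 0.229 to 0.415 UMIs per thinned cell and Acaa2 1.67 to 4.31.

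**Figure D3:**
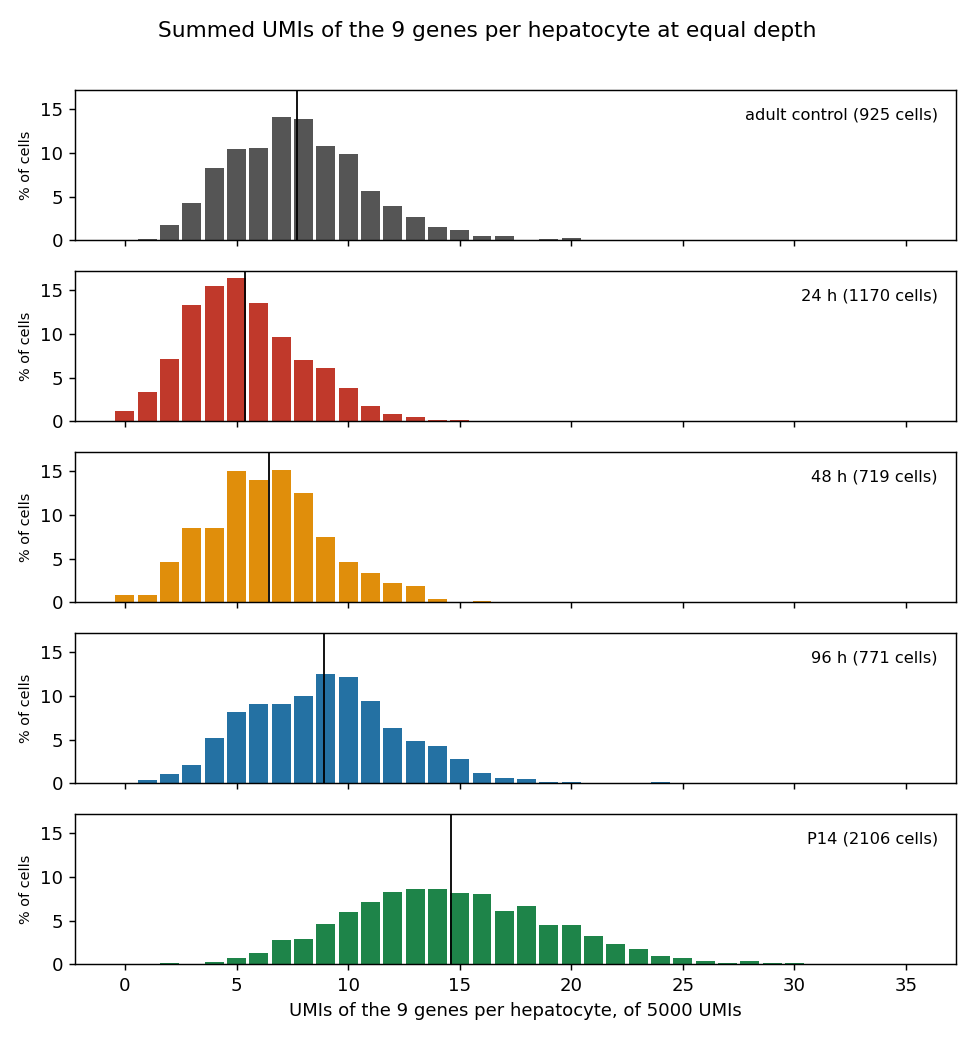
Distribution of the summed UMIs of the 9 genes per hepatocyte (x axis, of 5000 UMIs per cell) as a percentage of cells (y axis), 1 panel per library, with the mean as a vertical line. Each library forms a single hump, centred on medians of 8, 5, 6, 9 and 14 UMIs from top to bottom.

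Hepatocytes in division were compared with those outside it within a library, so both sets share its handling and come from the same free RNA. Cycling cells had UMIs of at least 3 mitosis genes after thinning, and non-cycling cells had none and at most 1 replication gene. There were 152 cycling and 422 non-cycling cells at 24 h, then 275 and 214 (48 h), 62 and 540 (96 h), and 232 and 1334 (P14). The adult control had 3 cycling cells and was left out. Of the 9 genes, 0 passed 1.5-fold in either direction in all 4 libraries, where the background was 22.1% above and 9.2% below at 24 h, 25.9% and 8.08% at 48 h, 26.6% and 16.1% at 96 h, and 23.3% and 5.29% in P14. This background reaches down to 5 CPM, where thinned cells give few UMIs and counting error is larger than for the 9 genes. The shares are thus no like measure for these 9. The median log2 ratio of the 9 genes was -0.17, -0.07, 0.10 and -0.09. The sum of the 9 genes was lower in cycling cells in 4 of 4 libraries, with 1297 against 1413 CPM at 24 h, 1622 against 1730 CPM at 48 h, 2328 against 2426 CPM at 96 h and 3336 against 3738 CPM in P14. No interval was taken for these sums. At 48 h and 96 h the gap in Acaa2 alone, given next, was wider than that in the sum. The other genes together were thus higher in cycling cells at both times. Acaa2 was lower in cycling cells in 4 of 4 libraries with intervals below 0: 367 against 442 CPM at 24 h, 510.1 against 675 CPM at 48 h, 619 against 764 CPM at 96 h, and 896 against 1124 CPM in P14. These are log2 ratios of -0.27, -0.40, -0.30 and -0.33. In P14 the intervals of Acadvl (-0.32, -0.50 to -0.14) and Hadha (-0.20, -0.41 to -0.01) were below 0 too. Acadm went the other way at 48 h, with 272 CPM in cycling and 192 CPM in non-cycling cells (0.50, 0.21 to 0.79), and its intervals spanned 0 in the other 3 libraries. Cells of 1 library are no replicates, and cycling cells were deeper before thinning at 24 h, 48 h and 96 h (for instance 41373 against 34248 UMIs at 48 h). In P14 they were not (37412 against 39163.5 UMIs). The same amount of free RNA per droplet is a smaller share of a deeper cell, so this share can differ between the sets. Markers of other cells moved with this contrast as well. In P14 the 6 erythroid markers summed to 386 CPM in cycling and 41.5 CPM in non-cycling cells, with 2 and 1 of them at 0, and the 8 monocyte, macrophage or dendritic markers to 23.1 and 4.55 CPM, with 4 at 0 in both. At 48 h the erythroid markers summed to 920.0 against 685 CPM, with 2 and 1 at 0, the 8 endothelial markers stood at 25.6 against 14.9 CPM, and the 9 T or NK markers at 17.0 against 11.2 CPM. At 24 h and 96 h the erythroid sums were 422 against 543 CPM and 221 against 256 CPM, on the other side. The part of these markers, of depth and of free RNA in the Acaa2 and Acadm values was not tested.

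Across the lobule, from the portal vein to the central vein, the sum of the 9 genes differed by less than 1.5-fold in each of the 5 libraries. Cells were ordered by the log2 ratio of summed periportal to pericentral markers, each library was split into 3 sets of equal size, and the outer sets were compared. These sets are ranges of a score and no cell types: 122 to 574 cells per library lay within 0.25 of a limit. The median log2 ratio of periportal over pericentral cells was -0.01 (control), -0.09 (24 h), 0.35 (48 h), -0.23 (96 h) and -0.07 (P14). The sum was lower in the periportal set in 5 of 5 libraries, with 2064 against 2094 CPM in the control, 1420 against 1460 CPM at 24 h, 1689 against 1693 CPM at 48 h, 2179 against 2571 CPM at 96 h and 3584 against 3829 CPM in P14, so at 48 h the sum and the median of the ratios differed in direction. These sums carry no interval, and the gaps in the control, at 24 h and at 48 h were small. At 48 h Acaa2 had 534 against 666 CPM (-0.32, -0.49 to -0.14), a wider gap than that of the sum. The other genes together were thus higher in the periportal set there. The log2 ratios of Acadm and Hadhb were below 0 in 5 of 5 libraries, but Acadm in P14 (-0.0024) and Hadhb in the control (-0.01) were nearly even. Their intervals were below 0 only for Acadm in the control and at 96 h (-0.43, -0.65 to -0.21) and for Hadhb in P14 (-0.30, -0.45 to -0.16). Cpt1a leaned to the periportal side at 48 h (0.39, 0.02 to 0.76) and in P14 (0.17, 0.04 to 0.31). Cpt2 at 24 h (-0.44, -0.90 to -0.0045) and Hadha in P14 (-0.18, -0.32 to -0.04) leaned to the pericentral side. In the control, at 24 h, at 48 h and in P14, 0 of 9 genes passed 1.5-fold (background 8.6% above and 12.4% below in the control, and 7.45% and 11.1%, 14.5% and 11.6%, and 7.52% and 4.57% in the others). Again the background of each library reaches down to 5 CPM, where counting error is larger than for the 9 genes. At 96 h, 0 were above and 2 below, against 9.14% and 16.8%, so the count below was near the share of all genes. The 2 below were Acadl, with 72.3 CPM (56.3 to 91.5) in periportal and 153 CPM (129 to 179) in pericentral cells, and Bdh1, with 155 CPM (131 to 182) and 238 CPM (208 to 271). All 9 genes were on the pericentral side at 96 h, where the median log2 ratio of all tested genes was itself -0.13. In the same contrast 18 of 19 mitosis genes were at least 1.5-fold lower in periportal cells, and median depth was 19382 against 25519 UMIs. The 8 monocyte, macrophage or dendritic markers summed to 12.6 against 2.08 CPM (12 and 2 UMIs, with 4 and 7 of them at 0), and the 9 T or NK markers to 6.29 against 31.1 CPM (6 and 30 UMIs, with 4 and 2 at 0). The part of any of these in the Acadl and Bdh1 values was not tested. Acadvl leaned to the periportal side in the control (0.37, 0.08 to 0.68), at 24 h (0.46, 0.14 to 0.79) and at 48 h (0.41, 0.01 to 0.82), but its intervals spanned 0 at 96 h (-0.14, -0.45 to 0.18) and in P14 (0.01, -0.12 to 0.13). Bdh1 leaned to the pericentral side in the control, at 96 h and in P14, and to the periportal side at 48 h (0.50, 0.10 to 0.91).

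**Figure D4:**
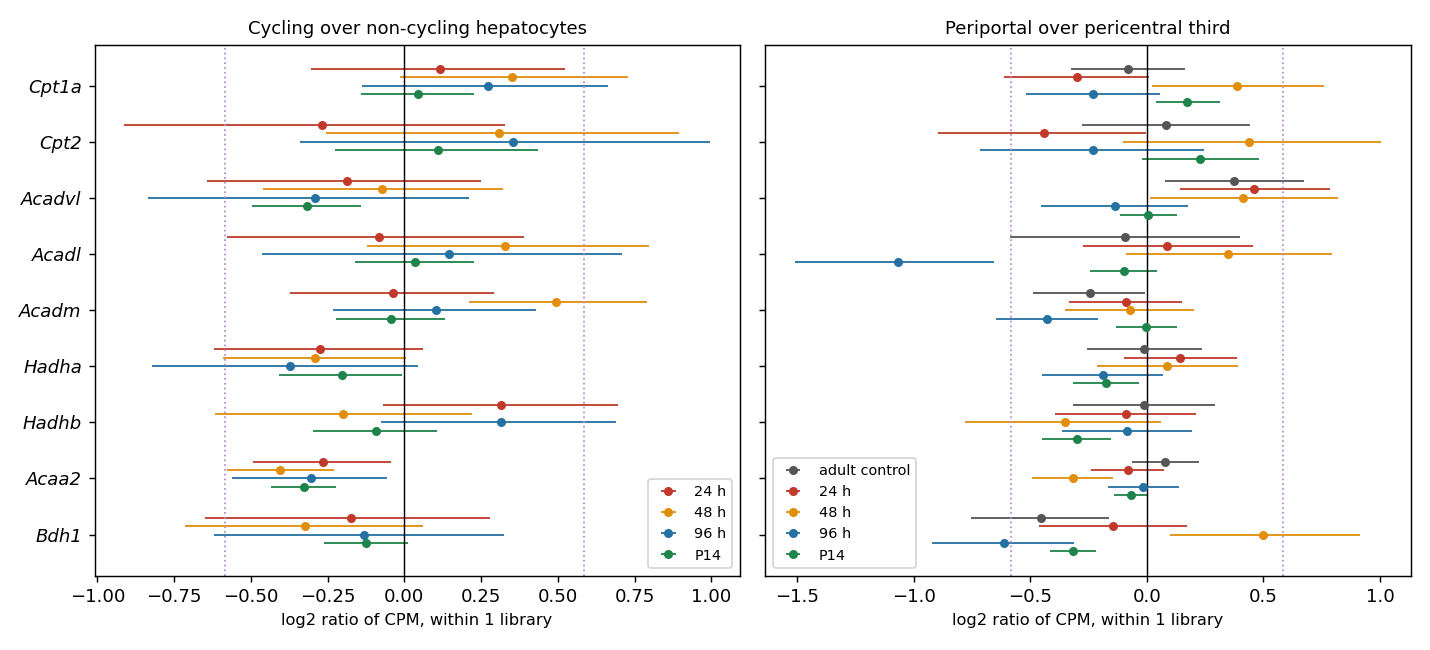
Log2 ratio of CPM within each library for each gene: cycling over non-cycling hepatocytes (left, 4 libraries) and the periportal over the pericentral set (right, 5 libraries). Points carry exact 95% intervals of counting error and dotted lines mark 1.5-fold. On the left Acaa2 lies below 0 in all 4 libraries, and on the right Acadl and Bdh1 at 96 h are the only points past a dotted line.

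The medians of the remaining genes of mitochondrial beta-oxidation followed the same order of libraries. Of 24 listed, 22 were measured above the minimum. At 24 h, 1 was at least 1.5-fold higher and 8 lower (4.55% and 36.4%, median -0.51), where all genes had 18.3% and 16.4%. At 48 h there were 3 and 7 (13.6% and 31.8%, median -0.17; all genes 16.6% and 18.7%), and at 96 h 6 and 1 (27.3% and 4.55%, median 0.33; all genes 12.8% and 6.13%). In P14 there were 12 and 3 (54.5% and 13.6%, median 0.80), where all genes had 13.3% and 30.8%. The higher share at 48 h and the lower share at 96 h were thus near those of all genes. Acsl1, which activates long-chain fatty acids with coenzyme A, had 929.5 CPM in the control, 267 CPM at 24 h, 254 CPM at 48 h, 629.8 CPM at 96 h and 885 CPM in P14, so it was low at the first times after PHx and close to control in P14. Its relative Acsl5 had 161, 114, 197, 266 and 172 CPM in the same order. Hadh, the short-chain hydroxyacyl-CoA dehydrogenase, had log2 ratios of -0.66 at 24 h and 1.23 in P14, and Echs1, the short-chain enoyl-CoA hydratase, had -0.35 and -0.11. The electron transfer flavoprotein takes the electrons of all acyl-CoA dehydrogenases. Its beta subunit Etfb was above the control in the other 4 libraries, with 184, 276, 447, 406 and 591 CPM, whereas the alpha subunit Etfa had 367, 311, 343, 564 and 631 CPM.

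Ketone body synthesis and export were described by a further list. Of 8 listed genes 6 were measured, with 1 higher and 3 lower at 24 h (against 18.3% and 16.4% of all genes; median -0.50). At 48 h there were 1 and 2 (against 16.6% and 18.7%; median -0.19), and at 96 h 4 and 0 (against 12.8% and 6.13%; median 0.78). P14 had 4 and 1 (against 13.3% and 30.8%; median 1.20). With 6 genes, each 1 is 16.7% of the list, so 1 higher at 24 h and at 48 h is near the share of all genes. The 4 higher at 96 h were Acat1, Bdh2 (14.6 against 28.1 CPM), which was chosen for mention after its value was seen, like the transporter Slc16a7 (21.7 against 62.7 CPM), and Slc16a1. Acat1, the mitochondrial acetoacetyl-CoA thiolase, had 184, 113, 167, 296 and 884 CPM in the order of control, 24 h, 48 h, 96 h and P14, and its P14 log2 ratio of 2.26 exceeded those of the 9 genes. Slc16a1, a monocarboxylate transporter through which ketone bodies leave the cell, was above the control in all 4 other libraries, with 32.7 CPM in the control, 91.2 CPM at 24 h, 94.2 CPM at 48 h, 61.5 CPM at 96 h and 99.3 CPM in P14.

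**Figure D5:**
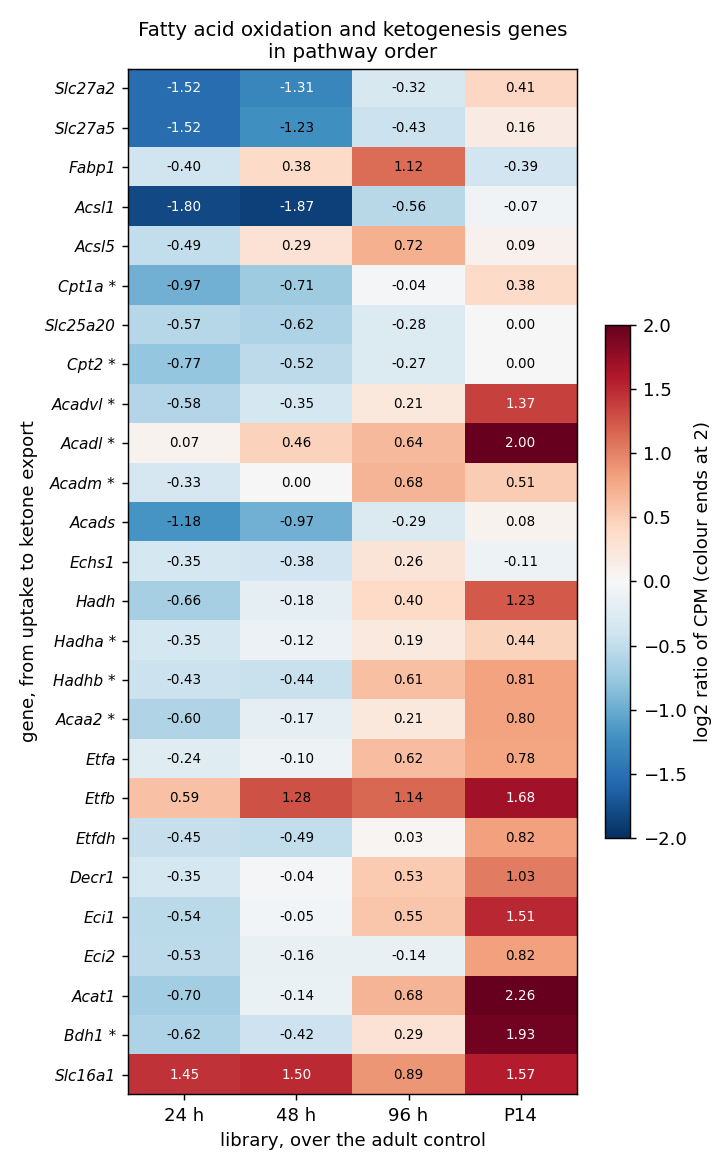
Log2 ratio of CPM over the adult control (colour and printed value) for genes in the order of the pathway, from uptake to ketone export, at 24 h, 48 h, 96 h and in P14. The 9 genes carry an asterisk and the others were placed for their step in the pathway. Acsl1 is the deepest blue at 24 h and 48 h, and Acadl, Acat1 and Bdh1 the deepest red in P14.

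Lists beside the pathway are given by their counts, with a few members named, and are read against all genes, of which 18.3% were higher and 16.4% lower at 24 h, 16.6% and 18.7% at 48 h, 12.8% and 6.13% at 96 h, and 13.3% and 30.8% in P14. Of 16 peroxisomal oxidation genes, 0 were higher and 9 lower at 24 h (56.2% lower), 1 and 9 (48 h), 1 and 3 (96 h), and 2 and 6 (P14; 12.5% and 37.5%, near all genes), with medians of -0.79, -0.81, -0.18 and -0.19, where the mean at 96 h was 0.05. Of 15 measured regulators of fatty acid oxidation, 0 were higher and 7 lower at 24 h (46.7% lower), 0 and 11 (48 h; 73.3% lower), 1 and 4 (96 h), and 3 and 5 (P14; 33.3% lower, near all genes), with medians of -0.55, -1.14, -0.26 and -0.40. Sirt3, a mitochondrial deacetylase, had log2 ratios of -1.24 (24 h), -1.14 (48 h), 0.03 (96 h) and 0.37 (P14). Creb3l3, a liver transcription factor of the fasting response, had -0.87, -0.94, -0.41 and -0.26. Of 11 measured PPAR-alpha targets outside oxidation, 3 were higher and 5 lower at 24 h (27.3% and 45.5%), 4 and 3 (48 h; 36.4% and 27.3%), 7 and 2 (96 h; 63.6% and 18.2%), and 6 and 3 (P14; 54.5% and 27.3%), with medians of -0.43, -0.27, 1.12 and 0.79. Of 11 measured genes of fatty acid uptake and lipid droplets, 0 were higher and 5 lower at 24 h (45.5% lower), 0 and 6 (48 h; 54.5% lower), 2 and 0 (96 h; 18.2% higher), and 2 and 4 (P14; 18.2% and 36.4%), the last 2 near all genes, with medians of -0.58, -0.83, -0.30 and 0.16. The last 2 lists share Fabp1 and Plin2. The fatty acid transporters Slc27a2 and Slc27a5 both stood at -1.52 at 24 h.

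A further pair of lists served as contrasts. Of 12 fatty acid synthesis genes, 0 were higher and 5 lower at 24 h (41.7% lower, against 16.4% of all genes), 0 and 10 at 48 h (83.3%, against 18.7%), 1 and 2 at 96 h (16.7% lower, against 6.13%), and 2 and 8 in P14 (66.7%, against 30.8%), with a P14 median of -2.69. Acly, Fasn and Scd1, enzymes of synthesis and desaturation, had P14 log2 ratios of -2.68, -2.70 and -7.05, on the opposite side from the 9 oxidation genes. Of 17 mitochondrial housekeeping genes, which import, fold and carry proteins and metabolites, 4 were higher and 0 lower at 24 h (23.5% higher, against 18.3% of all genes), 1 and 0 at 48 h (5.88%, against 16.6%), 2 and 0 at 96 h (11.8%, against 12.8%), and 3 and 1 in P14 (17.6%, against 13.3%), with medians of 0.31, -0.06, 0.25 and -0.03. Their means at 48 h and in P14 were 0.03 and 0.43, opposite in sign to the medians. At 24 h their median was thus above 0 and that of the 9 genes below it.

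Genes other than the 9 whose 4 ratios lay nearest to the median profile of the 9 were sought among 2632 genes of at least 50 CPM, by Euclidean distance over the 4 comparisons. The 4 nearest were Cyp2a12 (distance 0.147), Dhrs4 (0.162), C1ra (0.207) and Plg (0.218). They encode a cytochrome P450, a reductase, a complement protease and plasminogen. The 9 genes themselves lay at distances from 0.179 for Acaa2 to 1.64 for Acadl, with Cpt1a at 0.721 and Cpt2 at 0.968. The 4 were picked as the nearest of 2632 genes and the 9 were not. Their distances can therefore not be set against each other.

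Other values moved with the libraries and touch these results. Free RNA, read from empty droplets ranked far below the cells, held the 9 genes at 3183 CPM in the control, 1751 CPM at 24 h, 2152 CPM at 48 h, 3113 CPM at 96 h and 4570 CPM in P14. Counted per droplet it amounted to at most 19.5% of the hepatocyte UMIs of any of the 9 genes, reached by Acaa2 in the control. The control, which all 4 comparisons share, was the highest here for each gene: free RNA amounted to 9.67% to 19.5% of the UMIs of the 9 genes, against between 1.08% and 7.95% (24 h), 0.307% and 1.89% (48 h), 1.17% and 9.82% (96 h), and 0.899% and 2.41% (P14), so the highest value after PHx, that of Acaa2 at 96 h, lay within the range of the control. An empty droplet held 1328 UMIs against 290.0 to 795 in the other 4 libraries. Barcodes gated by T or NK cell markers, which should hold little of the pathway, had 1091, 632, 504, 853 and 948 CPM of the 9 genes, below the hepatocytes and the free RNA of each library. Other gates came nearer to the hepatocytes of the control (1956 CPM): its 2196 erythroid barcodes held 1972 CPM and its 78 endothelial barcodes 1901 CPM, at median depths of 1419 and 1788.5 UMIs, close to the 1328 UMIs of an empty droplet. In the other 4 libraries the erythroid gate held 810.2, 953, 1314 and 566 CPM and the endothelial gate 770.2, 574, 1498 and 1112 CPM, below the hepatocytes. In the hepatocyte gate, the 6 neutrophil markers summed to 11.3 CPM in the control, 106 CPM at 24 h, 196 CPM at 48 h, 21.7 CPM at 96 h and 30.8 CPM in P14, with none at 0. The 6 erythroid markers ranged from 106 CPM in P14 to 679.7 CPM at 48 h, with 1 of them at 0 at 96 h, and the 9 T or NK markers from 2.00 to 17.0 CPM. The 5 cholangiocyte markers summed to 35.6 CPM in the control, 102 CPM at 24 h, 44.9 CPM at 48 h, 188 CPM at 96 h and 46.8 CPM in P14, with 3 of them at 0 in the control and 2 at 96 h. At 96 h Spp1 gave 156 CPM and Sox9 32.3 CPM, with Krt19 and Epcam at 0 and Krt7 at 0.07 CPM. The 6 mesenchymal markers had 4.88 CPM in the control, at most 11.1 CPM after PHx and 46.1 CPM in P14, with 1 at 0 in both the control and P14. Reln alone gave 45.6 CPM in P14. Dcn went the other way, from 1.58 CPM in the control to 0.25 CPM in P14, as did Lrat, from 0.53 to 0.23 CPM. The 15 genes of tissue handling, immediate early and heat shock genes known to rise during cell release, summed to 776 CPM in the control, 789 CPM at 24 h, 904 CPM at 48 h, 1102 CPM at 96 h and 595 CPM in P14, with none at 0. Of the 11 measured, 4 were higher and 2 lower at 24 h (36.4% and 18.2%, against 18.3% and 16.4% of all genes), 3 and 2 at 48 h (27.3% and 18.2%, against 16.6% and 18.7%), 6 and 1 at 96 h (54.5% and 9.09%, against 12.8% and 6.13%), and 1 and 5 in P14 (9.09% and 45.5%, against 13.3% and 30.8%). Their medians were 0.19, 0.37, 0.75 and -0.52, and their means at 24 h and 48 h were -0.07 and -0.04, opposite in sign. In P14 set against 96 h, 0 were higher and 10 lower (against 6.85% and 28.5%). Median mitochondrial share was 25.3%, 23.8%, 24.5%, 26.0% and 20.6%. The part of these in the ratios was not tested, except that with free RNA subtracted the medians were -0.49, -0.22, 0.33 and 0.87.

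Barcodes with hepatocyte transcripts but under 5% mitochondrial UMIs lay outside the hepatocyte rule. They numbered 144, 307, 160, 639 and 105, from the control through the times after PHx to P14, and were shallower than hepatocytes (medians of 6006.5 to 9788.5 UMIs). In them the 9 genes parted. Cpt1a was at 69.1, 13.8, 17.0, 21.1 and 113 CPM, lower than in hepatocytes of the same library in 5 of 5, with log2 ratios from -3.36 at 96 h to -1.42 in P14. Acaa2 was at 2202, 957, 1284, 2074 and 2493 CPM, higher in 5 of 5, with log2 ratios from 1.18 in P14 to 1.80 in the control. Acadl was higher as well (0.83 to 1.74), whereas Hadha was lower (-1.32 to -0.20). All tested genes had medians of -0.18, -0.89, -0.72, -0.71 and -0.01 in the same order of libraries. Hadha in the control (-0.20) and at 96 h (-0.79) thus lay near the median of all genes. Of the 9 genes, 4 were at least 1.5-fold higher and 1 lower in the control (background 23.8% and 33.6%), 3 and 5 at 24 h (16.0% and 58.6%), 3 and 2 at 48 h (15.4% and 54.2%), 2 and 3 at 96 h (18.2% and 53.9%), and 3 and 1 in P14 (27.5% and 29.4%). The 5 lower at 24 h, the 2 higher at 96 h and the 3 higher in P14 were near the shares of all genes. Free RNA showed Cpt1a at 246, 32.2, 44.8, 59.8 and 185 CPM and Acaa2 at 1336, 828, 1082, 1615 and 1793 CPM, so Acaa2 was above its hepatocyte level in all 5 libraries and Cpt1a below it in 4. With such barcodes let in (0% to 30% mitochondrial UMIs), Cpt1a at 96 h stood at -0.52 over the control and Acaa2 at 0.68.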

How the data were processed

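The authors deposited, for every library, UMI counts per gene and barcode as a sparse matrix of whole numbers without normalization, empty droplets included. Per the file headers it was written by software version 3.0.2, and the submitters' processing notes name Cell Ranger, mm10, bcl2fastq 2.17.1.14 and Seurat 3.1. Filters and annotation are not given in the sources used here. Gene coordinates are from GENCODE M21 (GRCm38, the build of mm10), in which 31011 of 31053 identifiers were found. Promoter windows are from RefSeq.

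Cells were chosen as described above, in Python 3.11.15 with numpy 2.4.6, scipy 1.17.1 and pandas 2.3.3. Counts were summed per library and given as CPM, with a pseudocount of 1 CPM in ratios and exact binomial intervals for them. Scrublet (in scanpy 1.11.5) gave doublet scores, and doublets were kept: between 7 and 58 hepatocytes per library carried a high score. TMM factors came from edgeR 4.0.16, which was used for scaling only. Total hepatocyte UMIs ran from 17750324 to 80868122 per library. Ratios and intervals were checked on simulated counts. In all lists, the named genes are those of at least 50 CPM, up to 6 a list, highest first; a few per list are printed, and some are not reported here. The 9 genes, the lists and the hepatocyte rule were chosen with earlier results of these data known. The alternatives tried were other mitochondrial windows, depth and marker minimums, doublet removal, non-cycling cells only, other scalings and pseudocounts, thinning and free-RNA subtraction.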

Additional observations from a re-analysis of the deposited data

How the results depend on the processing

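The direction of the median over the 9 genes was kept in all 4 comparisons with the adult control under the 17 alternatives tried for each. At 24 h (median log2 ratio -0.58) it moved beyond counting error to -0.45 with Alb, Apoa1 and Ttr at 3% or more, -0.44 in non-cycling hepatocytes and -0.49 with free RNA subtracted. At 48 h (-0.35) these were -0.21 with the 3% minimum, -0.26 with TMM factors and -0.22 with free RNA subtracted. In non-cycling cells at 48 h it was -0.30 beside -0.23 for all genes, with 4 of the 9 above the latter. Acadl at 48 h (0.46) gained a call as higher with the 3% minimum (0.71), thinning (0.62) and free RNA subtracted (0.61). Cpt2 there (-0.52) gained a call as lower with 0 to 30% mitochondrial UMIs (-0.66), in non-cycling cells (-0.69) and with thinning (-0.74), Bdh1 (-0.42) with 10 to 20% (-0.61), and Acadvl (-0.35) with 30 to 50% (-0.64). At 96 h (0.21) they were 0.34 with 0 to 30% mitochondrial UMIs and 0.33 with free RNA subtracted. In P14 (0.80) they were 0.87 with 10 to 20% mitochondrial UMIs, 0.71 with 20 to 30%, 0.59 with 0 to 30%, 0.89 with mitochondrial genes in the denominator, 1.14 with TMM factors, 1.07 with median-of-ratios size factors, 0.67 with cells thinned to 5000 UMIs and 0.87 with free RNA subtracted. With 30 to 50% mitochondrial UMIs, a window chosen after seeing the data, the medians were -0.39 at 24 h, -0.10 at 48 h and 0.63 in P14. At 96 h the median in this window was 0.16, beside 0.14 for all genes, with 5 of the 9 above the latter. The higher level at 96 h was thus hardly apart from all genes in these barcodes. With 10 to 40%, also added then, the median was 0.75 in P14. In the 30 to 50% window Acadvl at 96 h went from 0.21 to -0.41. Among 10 to 20% cells the zonal comparison in P14 moved from -0.07 to -0.15. The cycling one at 96 h went from 0.10 to -0.52, but on 3 cycling cells, too few to read. Other medians within libraries turned or moved inside counting error: cycling at 24 h from -0.17 to -0.38 among 10 to 20% cells and -0.0028 with at least 5 mitosis genes, cycling at 48 h from -0.07 to 0.05 without thinning and 0.06 among 10 to 20% cells, cycling in P14 from -0.09 to 0.03 without thinning, cycling at 96 h to -0.08 with at least 5 mitosis genes, and, among 10 to 20% cells, zonal at 24 h from -0.09 to 0.11 and in the control from -0.01 to -0.28. The cause of these shifts was not tested. Of the calls at 96 h, Acadm, Acadl and Hadhb each lost theirs under at least 1 alternative; of those in P14, Acaa2 lost its call with 30 to 50% mitochondrial UMIs (0.15). Counts over all genes move with the threshold: at 2-fold, 674 genes were higher and 564 lower at 24 h in place of 1590 and 1425, 645 and 624 at 48 h in place of 1439 and 1618, 374 and 135 at 96 h in place of 1107 and 532, and 604 and 1161 in P14 in place of 1157 and 2669. Without the minimum of 5 CPM, 925 genes were lower at 96 h and 2024 higher in P14. No paired analysis was possible because each group has 1 library and the labels pair none, and for the same reason no library could be left out of a group. Depth limits genes as low as Cpt2 per cell more than sums per library.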
